A study of Mus musculus with 6 samples.

Results

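Retinoid X receptors, the nuclear receptors that pair with them or share their cofactors, and corepressors of this family were followed in CD4+ T cells (helper T cells) of the mouse, kept in culture. The 9 genes were Rxra, Rxrb, Vdr, Ppard, Nr1h2, Thra, Nr3c1, Ncor1 and Nrip1. Every probe set that the platform annotation assigns to exactly 1 gene symbol was taken where that symbol is one of the 9, which gave 23 of the 45101 probe sets, for 7 of the 9 genes. The array names 18194 genes in this way. No probe set carried Nr1h2 or Ncor1 as its only symbol, so these 2 genes were not analysed here. One further probe set lists Ppard together with a second gene and was not used. Dim probe sets were not tested: 20 of the 23 exceeded the 40th percentile of signal on 2 or more arrays and entered the tests.

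The groups are RA, Ro and Control, with 2 arrays each. RA is retinoic acid, as the series title gives it, and the labels do not expand Ro. Cells of all groups came from spleen, peripheral and mesenteric lymph nodes, and the labels give no strain, age, dose or time, except for Control replicate 2. That array alone has a culture protocol in its label, 5 days with the antibodies anti-mIFN-gamma and anti-mIL-4 and with the cytokines mTNF-a, mIL-21, mIL-23, mIL-6, mIL-1b, hTGF-b1 and hIL-2. Nothing in the labels says that the 2 arrays of a group come from separate cultures or mice, so a p-value here covers just the spread between these arrays, and that spread may be technical.

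Control replicate 2 stood apart from the other 5 arrays. Its correlation with them across tested probe sets was 0.869 to 0.880, against 0.947 to 0.970 among the rest. Of the 8 T cell markers 7 were on the array under a single symbol. These, Cd2, Cd3d, Cd3e, Cd3g, Cd4, Cd5 and Thy1, were bright on every array, with a summed signal of 24818 to 26177 in RA, 26561 to 30564 in Ro and 24848 to 27617 in Control. The sum hides opposite changes on Control replicate 2. Cd4, Cd3e and Cd5 were lowest there, at 463, 1010 and 1635, against at least 1141, 1701 and 3323 on the other 5 arrays. Cd3d and Cd3g were lowest there too, by less, whereas Thy1 was highest there, at 7555 against at most 4675. The 6 mast cell and basophil markers summed to 1250 to 1455 in RA, 3568 to 5471 in Ro, and 36.9 and 3638 in Control. The 6 macrophage and monocyte markers summed to 445 and 476 in RA, 364 and 1020 in Ro, and 129 and 1666 in Control. The CD8 T cell markers Cd8a and Cd8b1 summed to 69.5 and 102 in RA, 131 and 174 in Ro, and 135 and 255 in Control. The 2 genes did not move together. Cd8a had 14.9 and 15.5 in RA, 6.98 and 9.69 in Ro, and 10.8 and 170 in Control. Cd8b1 had 54.6 and 86.7 in RA, 124 and 164 in Ro, and 124 and 85.0 in Control. The mast cell and basophil sum was higher in Ro than in RA and lowest on Control replicate 2. The macrophage and monocyte sum differed widely within Ro and within Control. The T cell sum of Control replicate 2 lay within the range of the other arrays. None of the markers was listed at 0, and the part of these cell types in the results was not tested.

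Retinoid X receptors are obligate partners for many nuclear receptors: as heterodimers with the retinoic acid, vitamin D, thyroid hormone, liver X and peroxisome proliferator-activated receptors they bind pairs of a short hexamer in DNA. Without ligand such dimers recruit corepressors, and ligand binding exchanges these for coactivators. Retinoic acid acts on T cells through this system, best known for imprinting homing to the gut and for favouring regulatory T cells.

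Between RA and Ro, Nrip1 had the largest difference of the members: its mean signal was 2.03-fold to 3.34-fold higher in RA than in Ro on 5 of its 6 probe sets, without passing the test over all probe sets. The receptor genes Rxra, Rxrb and Thra differed little in their fitted values, Ppard was dimmer in RA than on any other array, and Vdr was dimmer in RA and Ro than in Control, with the lowest unadjusted p of any member in the fit of all 6 arrays (0.0219, for Ro minus Control). The signal of Nr3c1 was low on Control replicate 2. In bulk samples such as these, fewer cells of a type and less RNA per cell cannot be told apart. In none of the comparisons RA minus Ro, RA minus Control and Ro minus Control did limma on all 6 arrays call any of the 20 member probe sets at an adjusted p of 0.05. The background share of probe sets called was 0% in each comparison. In fits of only the 4 arrays compared, limma again called 0 of the 20, with 0.043% of all probe sets called between RA and Ro and 0% in the comparisons with Control.

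The corepressor Nrip1, also known as RIP140, binds ligand-occupied nuclear receptors and recruits repressive complexes, and in human cells it is a known retinoic acid-induced gene. RefSeq's table has 2 windows for it. The 250 bases before the start farthest upstream are shown, and the other window held none of the hexamers searched. The sequence is given because Nrip1 carries the largest RA minus Ro difference among the members, and retinoid receptors bind such hexamers. The sequence is RefSeq's, build GRCm38.p6, minus strand of chromosome 16, and capitals mark each match on either strand to the core hexamer AGGTCA or to 3 variants of it. The variants were spelled AGTTCA for the first, GGGTCA for the second and GGTTCA for the last.

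Nrip1 chr16:76373828-76374077: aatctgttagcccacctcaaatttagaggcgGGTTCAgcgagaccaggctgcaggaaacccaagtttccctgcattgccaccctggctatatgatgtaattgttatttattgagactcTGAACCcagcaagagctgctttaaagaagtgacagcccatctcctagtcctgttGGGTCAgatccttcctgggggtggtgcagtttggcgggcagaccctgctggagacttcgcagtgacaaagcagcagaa

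It holds GGTTCA from base -219, GGTTCA on the opposite strand from base -132 and GGGTCA from base -78, counted from the start site. Such matches were not particular to Nrip1: the 2 windows of Rxra held 3 in all, those of Vdr and Ncor1 held 1 each, and those of Rxrb, Ppard and Nr1h2 held 0. A match is a description, since 38.6% of the 32851 windows of this length in the same table hold at least 1 of these hexamers, and 8.85% hold GGTTCA and 11.6% GGGTCA. These shares are for at least 1 match, and how many windows hold 3, as this one does, was not counted. No direct repeat of AGGTCA with a spacer of 1, 2, 3, 4 or 5 bases was found in the Nrip1 sequence, nor in the windows of the other members that the table lists. Among all windows 0.00913% hold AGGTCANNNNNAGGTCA, the spacing at which retinoic acid receptor dimers typically bind.

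The brightest Nrip1 probe set, 1449089_at, read 1150.0 and 1123 in RA, 443 and 652 in Ro, and 1291 and 473 in Control. Both RA arrays lay above both Ro arrays, whereas Control replicate 1 lay above the RA arrays and Control replicate 2 within the range of Ro. Its mean signal was 1136 ± 19.3 in RA and 548 ± 148 in Ro (SD, n = 2 each), a 2.08-fold difference.

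The RA minus Ro difference of 1449089_at on the log2(signal + 2.999) scale was 1.29 (SE 0.50) in limma on all 6 arrays. Fitted log2 differences are given relative to the median difference of all tested probe sets, which was -0.21 for RA minus Ro, 0.09 for RA minus Control and 0.29 for Ro minus Control. Each p belongs to the difference before that median was taken off. For 1449089_at the limma adjusted p was 0.999 with all arrays (unadjusted p = 0.0674) and 0.567 with the 4 RA and Ro arrays (unadjusted p = 0.00364, SE 0.26). Without any 1 of the 6 arrays its difference ranged from 1.09 to 1.52.

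The other probe sets of Nrip1 repeat the RA to Ro contrast to different degrees. Probe set 1434384_at had 1084 and 1048 in RA, 431 and 619 in Ro, and 1003 and 391 in Control. Probe set 1418469_at had 852 and 469.5 in RA, 264 and 309.8 in Ro, and 804 and 312 in Control. In both, the RA and Ro arrays did not overlap, and for 1418469_at RA replicate 1 stood well above RA replicate 2.

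Probe set 1454295_at had the widest contrast, with 308 and 206 in RA, 76.9 and 76.8 in Ro, and 235 and 60.1 in Control, a 3.34-fold difference of the RA and Ro means. Its log2 difference was 1.89 (SE 0.64, unadjusted p = 0.0335, adjusted p = 0.999) with all 6 arrays and 1.89 (SE 0.31, adjusted p = 0.370) with the 4 arrays in limma. Probe set 1447211_at had 85.7 and 68.5 in RA, 24.9 and 37.6 in Ro, and 88.6 and 18.1 in Control. The dim probe set 1432603_at, at 16.8 and 13.8 in RA, 5.86 and 16.6 in Ro, and 16.4 and 6.13 in Control, was the only one of the 6 whose RA and Ro arrays overlapped. These probe sets read the same transcripts on the same arrays and are not replicates of the condition.

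**Figure D1:**
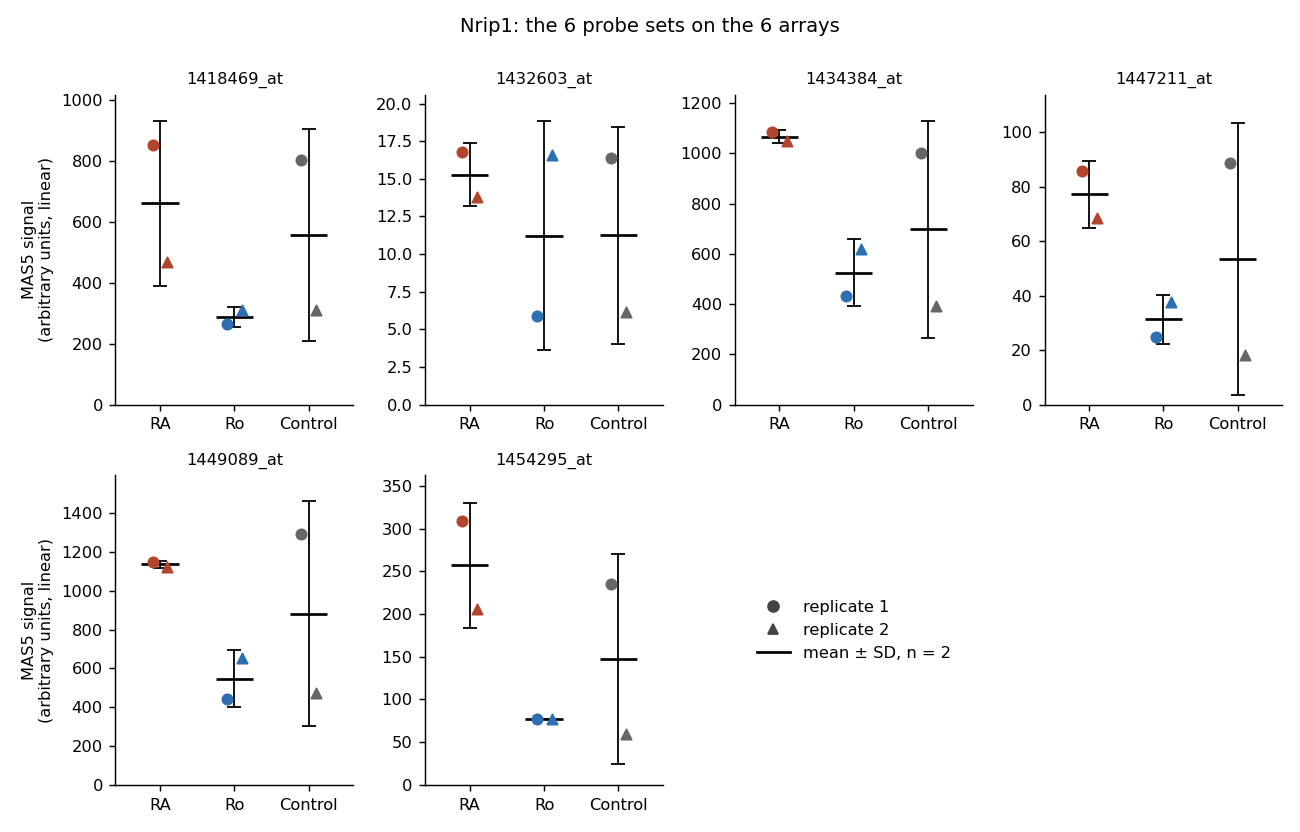
MAS5 signal (arbitrary units, linear axis from 0) of the 6 Nrip1 probe sets in RA, Ro and Control. Points are single arrays (circle, replicate 1; triangle, replicate 2), and bars are the mean ± SD of 2 arrays. In 5 panels both RA arrays lie above both Ro arrays, and in all 6 Control replicate 1 lies above Control replicate 2.

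Against the background, the Nrip1 contrast stood on the side where few probe sets lie. With signals as deposited, both RA arrays were above both Ro arrays for 5 of the 20 member probe sets, all of them Nrip1, against 6.83% of all tested probe sets. With each array scaled to a common median there were 7, the same 5 with 1418175_at of Vdr and 1454675_at of Thra (background 9.4%). A 2-fold difference without overlap on the scaled arrays was met by the same 5 probe sets in that direction (background 2.42%) and by 0 in the other (background 3.13%). At an unadjusted p under 0.05 limma gave 1 member probe set higher in RA with all 6 arrays (background 0.441%) and 0 lower (background 1.24%). With the 4 RA and Ro arrays it gave 5 higher (background 0.929%), all of Nrip1, and 1 lower, the Ppard probe set (background 6.35%). The 5 Nrip1 probe sets in these counts are readings of 1 gene on the same arrays. By the brightest probe set of each gene, 1 of the 7 genes was higher in RA without overlap of deposited signals. The members were chosen with earlier results of these data known, so the counts are a description. When the replicate number was added to the 4-array fit as a block, chosen after seeing the data, 1454295_at was called (limma adjusted p = 0.0345) and was the only member among the 0.38% of probe sets called. That fit has only 1 residual degree of freedom, and with the block in the fit of all 6 arrays 0 probe sets were called.

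Between RA and Control the sign of the Nrip1 difference was positive on all 6 probe sets, from 0.25 to 0.97 on the log2 scale, with the arrays overlapping on 5 of the 6. Only for 1434384_at were both RA arrays above both Control arrays. Between Ro and Control the differences were negative on all 6 probe sets, from -1.09 to -0.30, and only 1418469_at separated the arrays. On all 6 probe sets Control replicate 1 lay above Control replicate 2. The RA minus Control difference of 1449089_at was 0.90 without Control replicate 1 and 0.01 without Control replicate 2. The first of these fits leaves the outlying Control replicate 2 as the only Control array. For the same probe set the Ro minus Control difference was -0.82 (SE 0.50), with a range from -1.31 to -0.36 when 1 array was left out.

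The heterodimer partners themselves, Rxra and Rxrb, encode retinoid X receptors alpha and beta, the common subunits of these dimers. Rxra probe set 1454773_at had signals of 63.2 and 69.0 in RA, 140.3 and 73.5 in Ro, and 83.8 and 53.3 in Control. Its difference rested on Ro replicate 1, the brightest array. The RA minus Ro log2 difference was -0.39 (SE 0.47, limma adjusted p = 0.999) and turned to 0.14 without Ro replicate 1. The Ro minus Control difference of 0.30 turned to -0.22 without that array, and RA minus Control was -0.10, with a range from -0.13 to -0.06 when 1 array was left out. The second tested probe set of Rxra, 1425762_a_at, behaved alike by value, with 34.8 and 33.9 in RA, 84.0 and 30.6 in Ro, and 57.2 and 27.8 in Control. The dim 1430497_at stayed between 0.643 and 2.80 over the 6 arrays and was not tested.

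Rxrb had 761 and 858 in RA, 944 and 1056 in Ro, and 892 and 625 in Control on its single probe set. Both RA arrays lay below both Ro arrays, by a 0.81-fold ratio of means. Relative to the median probe set its differences were -0.09 (SE 0.32) for RA minus Ro, 0.03 (SE 0.32) for RA minus Control and 0.13 (SE 0.32) for Ro minus Control. Each of these is smaller than its SE.

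**Figure D2:**
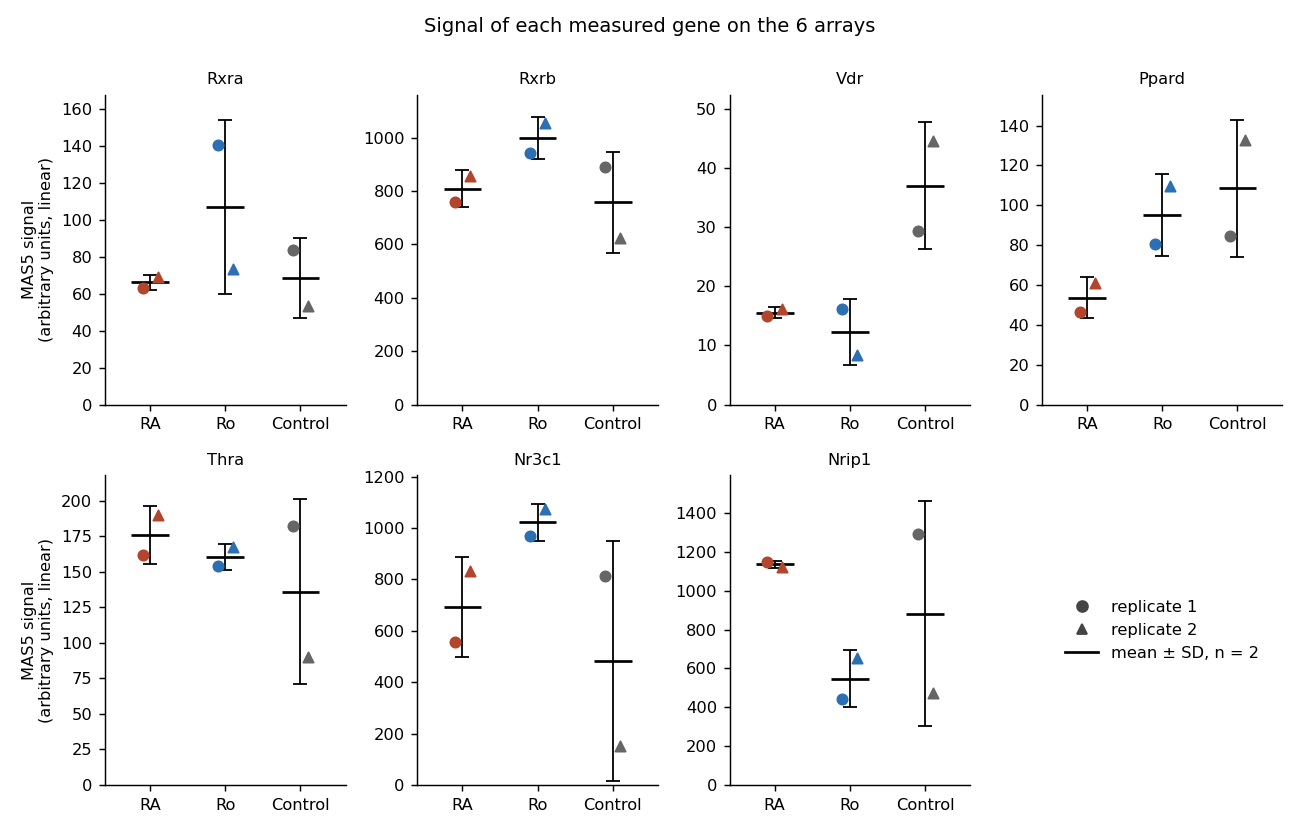
MAS5 signal (arbitrary units, linear axes from 0) of the brightest tested probe set of each of the 7 measured genes in RA, Ro and Control, with single arrays as points (circle, replicate 1; triangle, replicate 2) and the mean ± SD of 2 arrays as bars. Nrip1 is higher in RA than in Ro, Vdr is highest in Control, and the Control arrays of Nr3c1, Thra and Nrip1 are far apart.

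Vdr encodes the vitamin D receptor, which binds DNA with a retinoid X receptor. Its probe set 1418176_at had signals of 14.9 and 16.2 in RA, 16.2 and 8.31 in Ro, and 29.4 and 44.6 in Control. Both Control arrays were above all 4 other arrays. The log2 difference of Ro minus Control was -1.70 (SE 0.49, unadjusted p = 0.0219, limma adjusted p = 0.661), and that of RA minus Control was -1.17 (SE 0.49, adjusted p = 0.977). This was the 1 member probe set with an unadjusted p under 0.05 in Ro minus Control and it was lower (background 1.37%), with 0 higher (background 2.7%). In RA minus Control there was 0 in either direction, against backgrounds of 0.542% higher and 1.27% lower. These signals are close to the filter, which lies between 9.54 and 12.6 on the 6 arrays, so the size of the difference is uncertain.

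The second Vdr probe set, 1418175_at, had 10.2 and 15.7 in RA, 9.32 and 11.2 in Ro, and 12.8 and 27.4 in Control. RA overlapped with both other groups, whereas both Ro arrays were below both Control arrays. Leaving out 1 array at a time, the Ro minus Control difference of 1418176_at ranged from -2.24 to -1.19 and the RA minus Control difference from -1.72 to -0.61. The most negative values came without Control replicate 1, and the least negative without Control replicate 2.

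Ppard encodes the fatty acid-sensing receptor PPAR delta. Its tested probe set 1439797_at had signals of 46.2 and 60.8 in RA, 80.7 and 109.6 in Ro, and 84.3 and 132.9 in Control. The RA arrays lay below all 4 other arrays, and the Ro and Control arrays overlapped. The log2 difference was -1.04 (SE 0.43, adjusted p = 0.977) for RA minus Control and -0.58 (SE 0.43, adjusted p = 0.999) for RA minus Ro in limma. Without any 1 array these ranged from -1.64 to -0.44 and from -0.72 to -0.41. The other Ppard probe set, 1425703_at, was between 0.975 and 1.41 and was not tested.

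Thra encodes thyroid hormone receptor alpha. Probe set 1454675_at had 162 and 190.4 in RA, 154 and 167 in Ro, and 182 and 90.3 in Control, so RA overlapped with both groups. Probe set 1443952_at had 108 and 159 in RA, 105 and 155 in Ro, and 131 and 56.5 in Control. Probe set 1426997_at had 77.4 and 167 in RA, 112 and 194 in Ro, and 139 and 50.2 in Control. On all 3 probe sets Control replicate 2 was the dimmest array, and the RA minus Ro differences were small, from -0.15 to 0.34 with SEs from 0.45 to 0.63. Relative to Control, 1454675_at had differences of 0.36 in RA and 0.03 in Ro (SE 0.45 each), and without Control replicate 2 these were 0.14 and -0.23.

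Nr3c1 encodes the glucocorticoid receptor, which mostly acts without a retinoid X receptor but shares coactivators and corepressors with the other members. Probe set 1421867_at had signals of 557 and 832 in RA, 971 and 1073 in Ro, and 813 and 153 in Control. Probe set 1460303_at had 605 and 615 in RA, 822 and 727 in Ro, and 742 and 217 in Control. Control replicate 2 was the dimmest array on both, and RA lay below Ro without overlap.

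A further pair of Nr3c1 probe sets also had RA below Ro without overlap and Control replicate 2 dimmest. Probe set 1421866_at had 48.5 and 50.3 in RA, 78.4 and 68.1 in Ro, and 84.5 and 13.7 in Control. Probe set 1457635_s_at had 83.3 and 77.8 in RA, 135 and 122 in Ro, and 128 and 42.3 in Control. The RA minus Ro log2 differences of these 4 were -0.44 to -0.13 relative to the median probe set, with SEs of 0.55 to 0.73, and none passed.

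The fifth tested probe set, 1453860_s_at, disagreed with these 4. It had 143 and 34.4 in RA, 35.5 and 44.4 in Ro, and 193 and 33.6 in Control, high on RA replicate 1 and Control replicate 1. Its RA minus Ro log2 difference was 1.00 (SE 0.90) relative to the median probe set, with the RA and Ro arrays overlapping. The sixth, 1431378_at, was between 0.612 and 10.7 and was not tested.

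**Figure D3:**
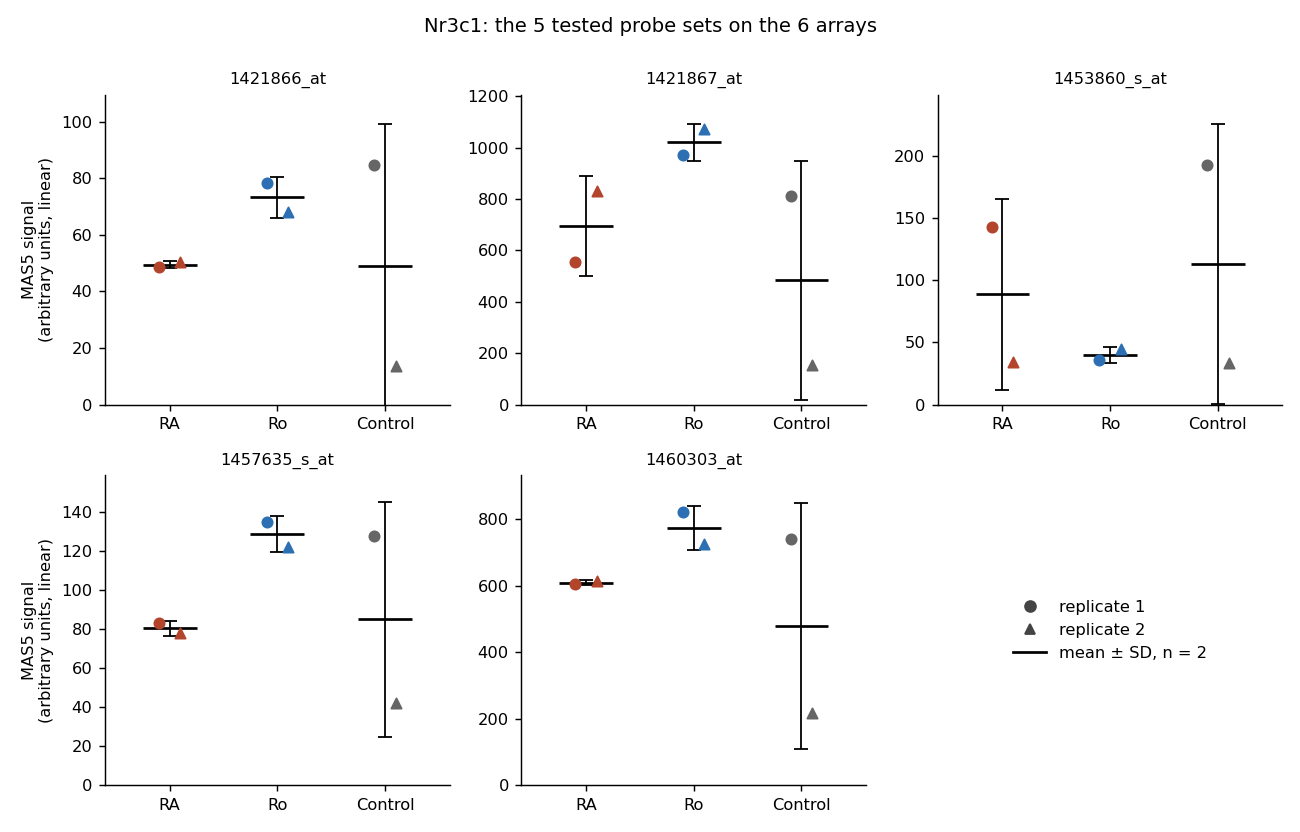
MAS5 signal (arbitrary units, linear axes from 0) of the 5 tested Nr3c1 probe sets in RA, Ro and Control, with single arrays as points (circle, replicate 1; triangle, replicate 2) and the mean ± SD of 2 arrays as bars. Control replicate 2 is the lowest array in every panel (for 1421866_at its group's SD bar is cut off at 0), and 1453860_s_at is the panel in which RA replicate 1 and Control replicate 1 stand above the rest.

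For Nr3c1 the comparisons with Control depended on which Control array was used. The Ro minus Control difference of 1421867_at was 1.24 (SE 0.72, limma adjusted p = 0.661), and it was 2.17 without Control replicate 1 (adjusted p = 0.00221) and 0.28 without Control replicate 2. The RA minus Control difference was 0.85 (SE 0.72), 1.78 without Control replicate 1 (adjusted p = 0.00751) and -0.06 without Control replicate 2. A fit without Control replicate 1 takes the spread from RA and Ro and assumes that it holds for the remaining Control array. They called 7 member probe sets in RA minus Control (background 15.1%), 4 of Nrip1 and 3 of Nr3c1, and 4 in Ro minus Control (background 24.9%), all of Nr3c1.

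With signals as deposited, 7 of the 20 member probe sets had both RA arrays below both Ro arrays (background 33.9%): 4 of Nr3c1, and 1 each of Rxra, Rxrb and Ppard. Between RA and Control, 1 member probe set was higher without overlap (background 9.92%) and 2 were lower (background 15.1%), those of Vdr and Ppard. Between Ro and Control, 2 were higher (Rxrb and Nr3c1, background 26.0%) and 3 were lower (2 of Vdr and 1 of Nrip1, background 9.71%). Array medians differ, and scaling them to a common median moved these counts. RA minus Ro then had 7 higher and 5 lower (background 27.2%), the 5 being Rxrb, Ppard and 3 of Nr3c1. RA minus Control had 5 higher (Rxrb, 2 of Thra and 2 of Nrip1, background 22.5%) and 2 lower (Vdr and Ppard, background 9.46%). Ro minus Control had 5 higher (Rxrb, Thra and 3 of Nr3c1, background 30.9%) and 4 lower (2 of Vdr, 1 of Nr3c1 and 1 of Nrip1, background 9.5%). With the added 2-fold difference on scaled arrays, RA minus Control had 1 higher (Nrip1, background 4.42%) and 2 lower (Vdr and Ppard, background 3.28%). Ro minus Control had 1 higher (Nr3c1, background 7.18%) and 3 lower (2 of Vdr and 1 of Nr3c1, background 4.0%). The median of the 7 genes was -0.09 for RA minus Ro, 0.03 for RA minus Control and 0.03 for Ro minus Control, against -0.03, 0.02 and 0.03 over all 12986 genes tested. With 2 arrays against 2, an exact permutation test of a single probe set cannot give a p below 0.333.

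**Figure D4:**
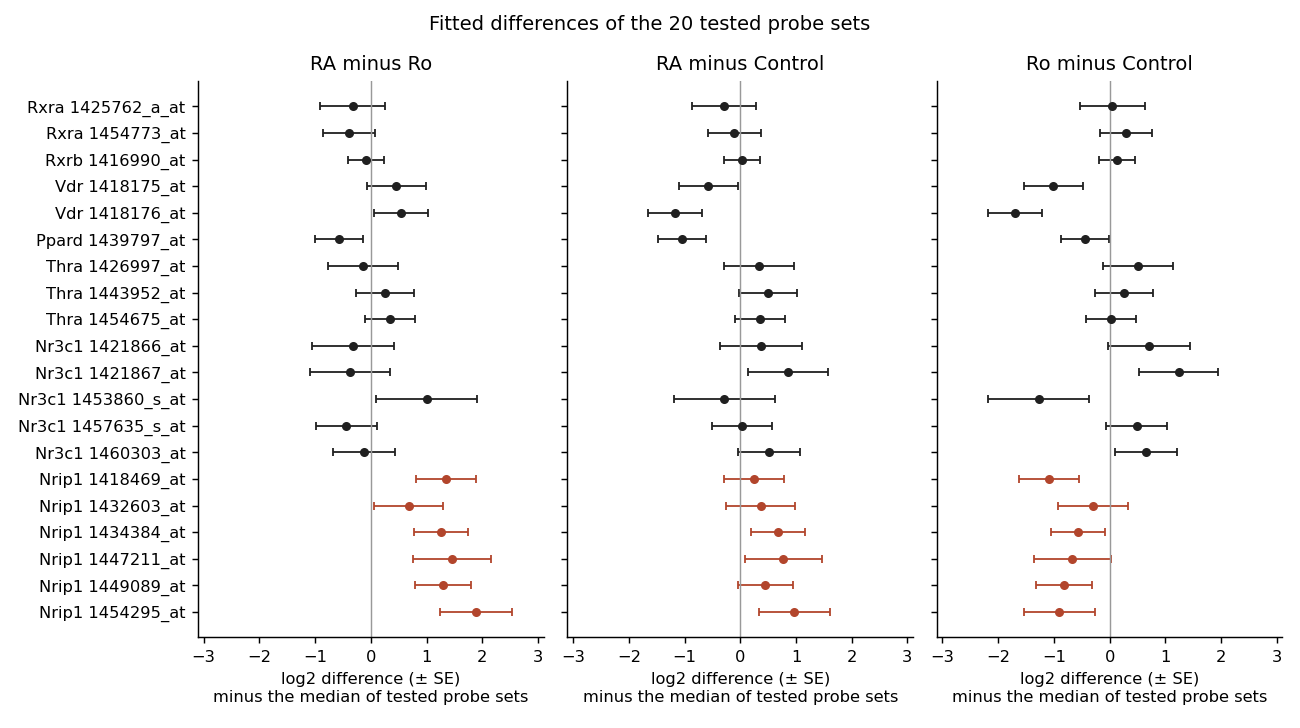
Fitted log2 differences (x axis, points, with SE as bars, relative to the median of all tested probe sets) of the 20 tested member probe sets (y axis) in limma on all 6 arrays, for RA minus Ro, RA minus Control and Ro minus Control. The 6 Nrip1 probe sets (red) are positive in RA minus Ro, from 0.68 to 1.89, and negative in Ro minus Control, and the 2 Vdr probe sets are negative against Control in both other panels.

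Each member was also set beside the gene whose log2 values, centred on the array median, followed it best over the 6 arrays, as a description over only 6 points that share the outlying Control replicate 2. For Nr3c1 that gene was Aff3 (Pearson r = 0.999), and 459 of 7526 other genes exceeded 0.95. For Ppard it was Wdr55 (r = 0.996, with 136 genes over 0.95), and for Vdr it was the dim Arpp21 (r = 0.993, with 37). Nrip1 had fewer close followers, with 11 genes over 0.95 and the dim Evx1os first (r = 0.977). Rxra was nearest to Slc35e4 (r = 0.979), Rxrb to Fgd6 (r = 0.982) and Thra to 4930422I22Rik (r = 0.990), with 5 genes over 0.95 in each case. These followers were dim too, at 10.7 to 31.5, 4.02 to 31.5 and 1.53 to 20.8. Rxrb and Thra themselves varied by only 0.23 and 0.52 log2 over the arrays, so their likeness says little.

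The rest of the nuclear receptor system was described by gene lists, in which none of the genes passed limma in any comparison, with lowest adjusted p values of 0.999 for RA minus Ro, 0.977 for RA minus Control and 0.661 for Ro minus Control. Of the retinoic acid receptors, which bind RA directly, Rara and Rarg were tested and Rarb lay below the filter. Rxrg, a retinoid X receptor gene on the same list, lay below the filter too. Rarg had 107 and 105 in RA, 197 and 236 in Ro, and 181 and 114 in Control. Rara had 33.4 and 68.9 in RA, 71.3 and 86.5 in Ro, and 62.3 and 82.8 in Control. For both genes the RA arrays lay below both Ro arrays, by -0.79 (SE 0.40) and -0.46 (SE 0.47) relative to the median probe set. The same lack of overlap held for 33.9% of all tested probe sets, and for Rara the gap was narrow (68.9 against 71.3).

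Among 5 tested further partners of the retinoid X receptors, 4 lay below the median probe set in RA minus Ro. Nr4a1, an early response gene of T cell receptor signalling, had 671 and 976 in RA, 1372 and 1461 in Ro, and 1133 and 1031 in Control. Its relative Nr4a2 had 17.1 and 19.1 in RA, 30.1 and 38.5 in Ro, and 27.9 and 342 in Control, so Control replicate 2 stood far above the others. Of the 17 other nuclear receptors tested, 9 lay above and 8 below the median probe set. Nr4a3 had 195 and 441 in RA, 898 and 755 in Ro, and 414 and 874 in Control. The dim Nr5a1, steroidogenic factor 1, had 7.64 and 18.0 in RA, 1.53 and 4.71 in Ro, and 14.2 and 3.76 in Control.

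Most corepressor and coactivator genes had lower signals in RA than in Ro, as did many of all tested probe sets (33.9% without overlap). That share includes dim probe sets, whereas each listed gene is read by its brightest one, so the counts and the share are not like for like. The median RA minus Ro difference of all tested probe sets was -0.21, and -0.25 with the filter at the 60th percentile. Of 18 tested corepressor genes 13 were below the median probe set, and 13 had both RA arrays below both Ro arrays (list median -0.14, against -0.03 over all genes). Hdac3, the deacetylase that Ncor1 complexes carry, had a difference of -0.05, and their subunits Tbl1x and Gps2 had -0.13 and -0.09. Tbl1xr1, of the same list, went the other way at 0.23, with RA and Ro arrays overlapping. Of 19 tested coactivators 16 were below the median probe set, and 14 had both RA arrays below both Ro arrays (list median -0.27).

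Hic1, a transcriptional repressor gene, and Coro2a, a component of the Ncor1 complex, ran in the same direction as Nrip1. Hic1 had 179 and 212 in RA, 47.9 and 63.7 in Ro, and 217 and 79.0 in Control (RA minus Ro 1.98, SE 0.54, limma adjusted p = 0.999). Coro2a had 240.1 and 181 in RA, 153 and 65.3 in Ro, and 181 and 159 in Control (1.25, SE 0.49). For Hic1, as for Nrip1, Control replicate 1 was at the level of RA and Control replicate 2 closer to Ro. The steroid receptor coactivator Ncoa1 had 189 and 289 in RA, 381 and 419 in Ro, and 287 and 197 in Control. Ppargc1b, a coactivator of mitochondrial genes, had 92.2 and 154 in RA, 157 and 288 in Ro, and 164 and 109.5 in Control.

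Target genes of the partner receptors gave no common direction. Of 10 tested targets of the liver X receptors, the class to which Nr1h2 belongs, 3 lay above and 7 below the median probe set in RA minus Ro. The dim Abcg4, a sterol transporter, had 7.36 and 22.6 in RA, 30.7 and 46.1 in Ro, and 25.8 and 35.4 in Control. Smpdl3a had 1675 and 1661 in RA, 910.2 and 1608 in Ro, and 1871 and 247 in Control. Of 8 tested PPAR delta targets 6 lay above and 2 below, with a list median of 0.16. Hadha, a subunit of the mitochondrial fatty acid oxidation enzyme, had 635 and 766 in RA, 938 and 899.6 in Ro, and 698 and 360.4 in Control. Ucp3, a mitochondrial carrier, was dim at 17.8 and 14.2 in RA, 12.5 and 13.6 in Ro, and 31.1 and 23.3 in Control.

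Of 10 tested glucocorticoid targets 4 lay above and 6 below the median probe set in RA minus Ro (list median -0.25). Tsc22d3, the glucocorticoid-induced leucine zipper gene, had 467 and 436 in RA, 867 and 765 in Ro, and 637 and 170.2 in Control. Errfi1, a feedback inhibitor of epidermal growth factor receptor signalling, had 42.3 and 54.9 in RA, 103 and 88.4 in Ro, and 72.1 and 115 in Control. Both genes were named for the lack of overlap between RA and Ro, which 5 of the 10 targets showed with RA lower and 1 with RA higher. Over all tested probe sets, dim ones included, these shares were 33.9% and 6.83%. Of 5 tested thyroid hormone targets 3 lay above and 2 below. Klf9, a target of both the thyroid hormone and glucocorticoid receptors, had 332 and 362 in RA, 241 and 292 in Ro, and 333 and 411 in Control, and the dim muscle calcium pump gene Atp2a1 had 9.23 and 18.2 in RA, 20.8 and 21.5 in Ro, and 14.1 and 24.0 in Control. Only 2 vitamin D receptor targets were tested, Cd14 and Trpv6, and the calcium channel gene Trpv6 was dim at 7.04 and 2.79 in RA, 8.64 and 13.7 in Ro, and 11.2 and 12.8 in Control.

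**Figure D5:**
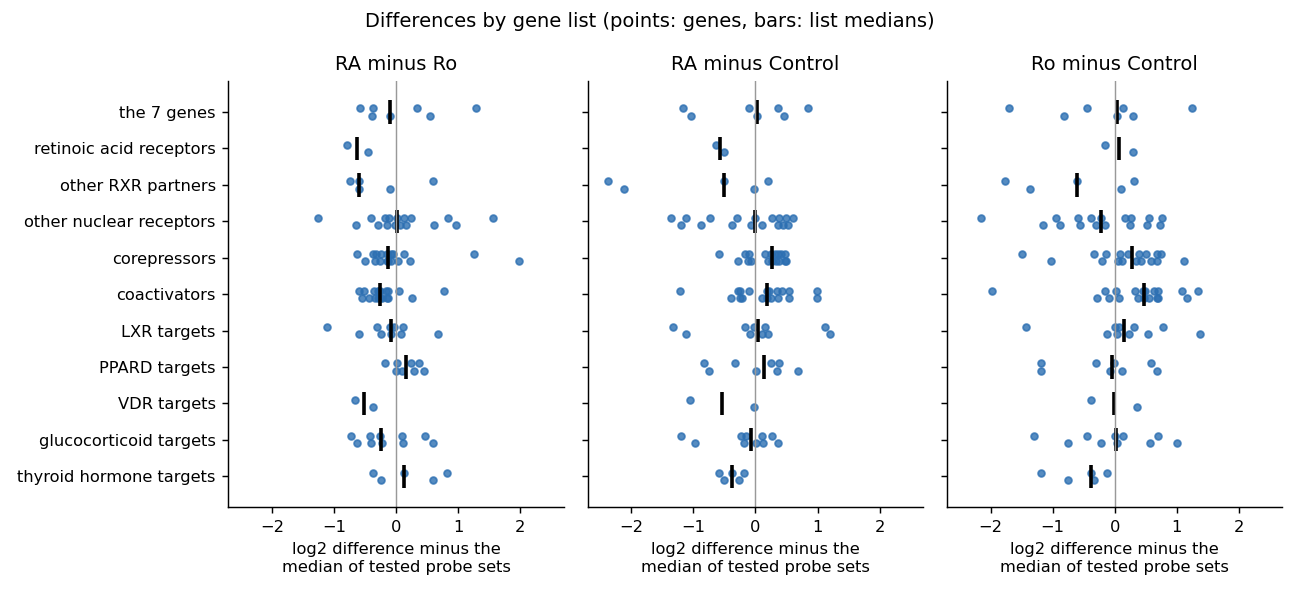
Log2 differences relative to the median of all tested probe sets (x axis) of the genes in each list (y axis; points are genes, black bars list medians), for RA minus Ro, RA minus Control and Ro minus Control. The coactivators have a median of -0.27 in RA minus Ro and 0.46 in Ro minus Control, and Hic1, at 1.98, is the point farthest to the right among the corepressors in RA minus Ro. For most coactivators, though not for Prmt1, the outlying Control replicate 2 was the dimmest array, which limits the reading of the 0.46.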

How the data were processed

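RNA (2 ug of total RNA per array, amplified in a single round and biotin-labelled, per the labels) from cultured cells was measured on 6 arrays. Each deposited value is the intensity of a probe set on a linear scale. The authors computed it with MAS5, as the submitters' processing notes name it, with version and scaling target not given in the sources used here. Array medians ran from 16.3 to 23.8, and the number of arrays limits the precision. Detection calls were not used. Groups and replicate numbers are from the sample titles (RO and Ro taken as 1 group).

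Symbols are from the platform annotation (34958 probe sets with 1 symbol, 932 with several, 9211 with none), with 0 changed through the Entrez ID. The 64 control probe sets were not tested. The test was limma 3.58.1 in R 4.3.3, with an intensity trend in eBayes, applied to log2(signal + 2.999), the pseudocount being the 20th percentile of all values, which makes differences of dim genes look smaller. All 6 arrays entered 1 fit over 29507 probe sets, with Benjamini-Hochberg adjustment over all of them, both directions allowed and a threshold of 0.05. A gene is represented by its brightest tested probe set, not of the cross-hybridising kind where another exists. Likeness was the Pearson correlation over the 6 arrays with 7526 or 7527 other genes whose range was at least 1. The steps were tested on simulated data with less spread between arrays than the member probe sets had. That checks the steps, and not whether the member differences could be detected here.

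All members were named. Other lists named the retinoic acid receptors and, where no gene passed, up to 2 genes with the largest RA minus Ro difference among those without overlap. Hdac3, Tbl1x, Tbl1xr1, Gps2 and Cd14 were added with their values known. The members and lists were chosen with earlier results of these data known. Alternatives were other pseudocounts, quantile normalization, other filters, no trend, a replicate block, the 4 arrays compared, each array left out, the mean over probe sets and a 2-fold criterion. Promoter windows are RefSeq's, and 7 of the 9 genes had 1 or 2 of them.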

Additional observations from a re-analysis of the deposited data

How the results depend on the processing

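The 21 member differences (7 genes, 3 comparisons) were recomputed under the alternatives, and 10 of the 333 values so obtained had another sign. Quantile normalization turned Rxrb to -0.018 in RA minus Control and to -0.0042 in Ro minus Control, and Thra to -0.12 in Ro minus Control. The filter at the 60th percentile turned the same Rxrb RA minus Control value to -0.026 and the Thra value to -0.077. Leaving out 1 array, Rxra ranged from -0.89 to 0.14 in RA minus Ro and from -0.22 to 0.79 in Ro minus Control, Ppard from -1.03 to 0.11 and Thra from -0.23 to 0.26 in Ro minus Control, and Nr3c1 from -0.060 to 1.78 in RA minus Control. The cause was not tested. Nrip1 in RA minus Ro kept its sign in all alternatives.

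Counts of calls by limma were 0 in each comparison with all 6 arrays. With only the 4 arrays compared there were 12 probe sets called in RA minus Ro and no member. Leaving out 1 array, calls ranged from 0 to 12 in RA minus Ro, from 0 to 4372 (members 0 to 7) in RA minus Control, and from 0 to 7211 (members 0 to 4) in Ro minus Control. The highest counts came without Control replicate 1. The 2-fold criterion, which has no test, gave 5, 3 and 4 member probe sets in RA minus Ro, RA minus Control and Ro minus Control.

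With the replicate number as a block in the fit of all 6 arrays, limma called 0 probe sets in each comparison. In the fits of 4 arrays with a replicate block, added after seeing the data, the counts were 106 in RA minus Ro (1 member), 56 in RA minus Control and 93 in Ro minus Control (0 members each). Each of these fits has only 1 residual degree of freedom. Same-numbered arrays deviated together with a correlation of 0.249 in RA and Ro, 0.00477 in RA and Control and -0.029 in Ro and Control. The labels do not say what a number stands for, and whether the numbers pair the arrays was not settled. MAS5 signals near the filter, as for Vdr and for 1432603_at of Nrip1, limit how far sizes can be read.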
